A study of Homo sapiens with 3 samples.

Results

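The nuclear-encoded genes of the mitochondrial respiratory chain were followed on whole-genome expression microarrays of 1205Lu melanoma cells. Probes were taken by the gene name printed in the scanner output, where names of the NDUF, SDH, UQCR, COX4 to COX8 and ATP5 families mark subunits of complexes I to V. This gave 116 of the 41000 probes and 81 of the 30982 gene names, and the rule uses gene names and no measured value. On at least 1 array, 78 of the 81 genes were well above background, as were 22409 of all gene names.

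1205Lu is an established human melanoma line that came from a lung metastasis of WM793 cells grown as a xenograft in mice. The original monolayer (OM) was kept for 14 days in RPMI-1640 with 10% fetal calf serum. Melanoma stem cell-like bodies (MB) were 3D aggregates kept for 14 days in human embryonic stem cell (hESC) medium, a DMEM F-12 medium with serum replacement, and were collected by physical detachment. The new monolayer derived from MBs (NM) came from bodies of 14 days that then spent 10 days in the serum medium, with remaining bodies removed before RNA was prepared. The populations were compared to ask which genes follow the reversible change between flat and 3D growth. No allele or drug was introduced, and all 3 populations are 1 line.

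The respiratory chain sits in the inner mitochondrial membrane. Complex I takes electrons from NADH and complex II takes them from succinate, both pass them to coenzyme Q, complex III hands them to cytochrome c, and complex IV gives them to oxygen. Complexes I, III and IV pump protons, and complex V (ATP synthase) lets the protons back to make ATP. Most subunits are encoded in the nucleus and imported, so that cells must match their supply with the few subunits made from mitochondrial DNA. In melanoma the chain is known to be more active in cells that express the coactivator PGC-1alpha.

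Each population was hybridised to 1 array, so no difference had a replicate check and no p-value was computed. Each array's signals were scaled to the average of its GAPDH, ACTB and HSP90AA1 probes, with factors of 1 for OM, 0.978 for MB and 0.877 for NM, and are given in arbitrary units (a.u.) after this scaling. Growth form, medium, days in culture and array cannot be told apart. Nor can fewer cells of a kind be told apart from less RNA per cell. Of 9 melanocyte lineage markers, 6 were well above background on all 3 arrays, SOX10, S100B and MIA among them, while TYR and TYRP1 were not on any. Their summed signal was 101157 a.u. on OM, 146310 a.u. on MB and 90609 a.u. on NM. MIA, S100B and SOX10, each highest on MB, held nearly all of that sum. MITF was also highest on MB (423, 734 and 628 a.u. on OM, MB and NM). SILV (286, 214 and 309 a.u.) and DCT (66.7, 64.3 and 73.0 a.u.) were lowest there. The fibroblast markers COL1A1, COL3A1 and LUM, the leukocyte markers PTPRC and CD3D and the endothelial marker CDH5 were well above background on none of the arrays. KRT14 of the keratinocyte list (213, 381 and 134 a.u. on OM, MB and NM) and VWF of the endothelial list (185, 399 and 109 a.u.) were so on all 3 arrays, both highest on MB, and PECAM1 (89.7 a.u.) and DCN (27.5 a.u.) on MB only. PDGFRA, at 5519, 10109 and 3618 a.u., made up nearly all of the fibroblast list, which summed to between 3680 and 10163 a.u. The summed lists lay between 148 and 390 a.u. for keratinocyte, 1785 and 5652 a.u. for leukocyte and 132 and 498 a.u. for endothelial markers. CD68 held most of the leukocyte sum. It was well above background on all 3 arrays and lowest on MB (4716, 1766 and 5637 a.u. on OM, MB and NM). The part of other cells in the results below was not tested.

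Respiratory chain genes were read slightly lower in the bodies than in either monolayer, across nearly the whole set and by small amounts. In MB over OM, 69 of the 78 genes had a log2 ratio below 0 and 9 above, against 43.5% and 56.5% of all measured genes, and their median was -0.20 against 0.08 for all genes. In MB over NM, 70 of the 78 were below 0 and 8 above, against 47.3% and 52.7% of all genes, with a median of -0.40 against 0.05. In NM over OM, 66 of the 78 were above 0 and 12 below, against 54.1% and 45.9% of all genes, with a median of 0.21 against 0.05. That last median was 0.02 with no scaling, 0.03 with quantile normalisation and 0.07 with spike-in scaling. The comparisons share arrays, so they are not independent views of the set. Within the interquartile range of the members' signal, 51.2% of all genes were below 0 in MB over OM. There 59.3% were below 0 in MB over NM, and 66.2% above 0 in NM over OM. For the members of that range these shares were 92.1%, 94.7% and 81.6%. Above 20000 a.u. the same shares were 62.2%, 68.3% and 72.3% of all genes and 92.7%, 92.7% and 85.4% of members. The interquartile range of the members ran from -0.33 to -0.10 in MB over OM and from -0.58 to -0.22 in MB over NM.

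By 1.5-fold, few single genes differed between MB and OM and none between NM and OM, while MB and NM differed in more. In MB over OM, 2 were lower (NDUFA7 and COX4I1) and 0 higher, where 8.41% of all genes were lower and 14.5% higher. In MB over NM, 20 were lower and 0 higher, where 16.4% of all genes were lower and 19.8% higher. Of 1788 genes within the interquartile range of the members' signal, 440 were lower and 214 higher, against 11 and 0 of 38 members. Above 20000 a.u., 673 of 1907 genes were lower and 172 higher, against 12 and 0 of 41 members. Scaling moved the counts over all members. In MB over OM 11 members were lower with the 75th percentile and 27 with spike-ins. In MB over NM between 11 (quantile normalisation) and 37 (spike-ins) were lower. The other scalings also move the rest of the genes. The shares of all genes given here are for the main scaling and were not counted under the others. In NM over OM, 0 genes passed in either direction, where 10.9% of all genes were higher and 9.35% lower. At the 5-fold threshold of the study's methods 0 members were called in any comparison, where 1.38% of all genes passed in MB over OM, 3.61% in MB over NM and 1.38% in NM over OM. Single ratios were thus below 5-fold throughout, while most of them had the same sign.

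The technical error was read from probes that are printed 10 times per array. Between single spots the SD of a log2 ratio was 0.060 in MB over OM (146 probes above 1000 a.u.), 0.059 in MB over NM (143 probes) and 0.062 in NM over OM (152 probes). Beyond 2 such SDs, 55 members were lower and 5 higher in MB over OM, 64 lower and 3 higher in MB over NM, and 4 lower and 51 higher in NM over OM. All measured genes were not counted this way, but their interquartile ranges also passed 2 SDs on both sides. These ran from -0.27 to 0.45 in MB over OM, -0.44 to 0.62 in MB over NM and -0.33 to 0.38 in NM over OM. The technical error covers spots within an array, not cultures, and each member probe was printed once.

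**Figure D1:**
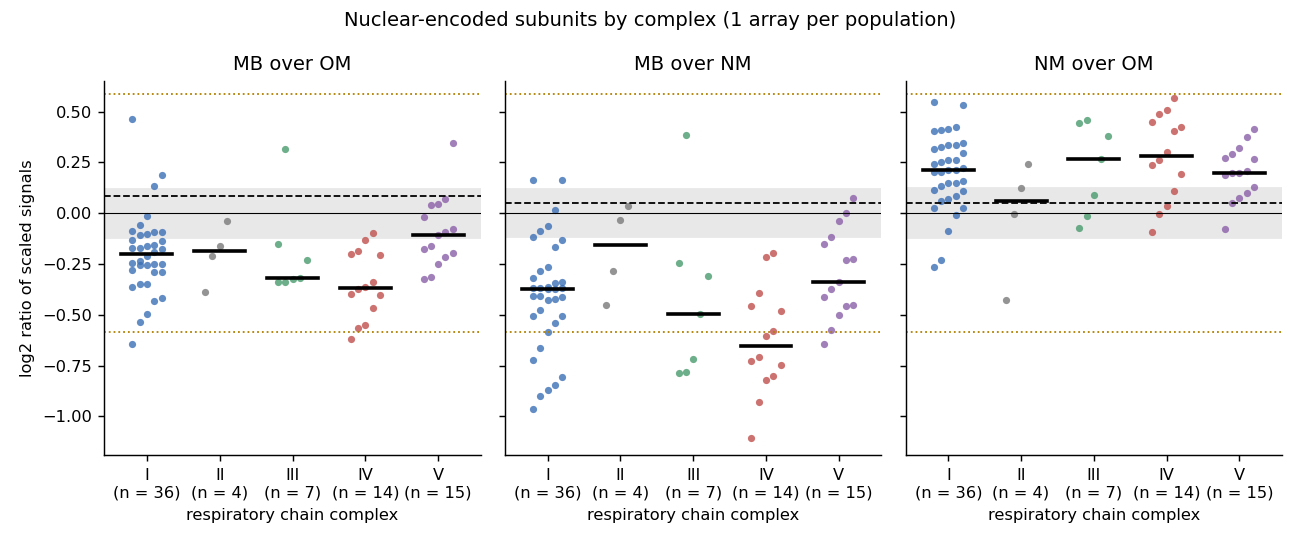
Log2 ratio of the scaled signals (vertical axis) of each measured subunit gene, by complex (horizontal axis), for MB over OM, MB over NM and NM over OM. Points are genes, black bars are medians of the complex, the dashed line is the median of all measured genes, the grey band spans 2 technical SDs on each side of 0, and dotted lines mark 1.5-fold; complex IV has the lowest medians in the first 2 panels (-0.37 and -0.66).

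The arrays also differed in a way that follows signal, and the respiratory chain genes are bright. Their median signal was 22296 a.u., against 810 a.u. for all measured genes. Among all genes above 50000 a.u., the median log2 ratio was -0.21 in MB over OM, -0.50 in MB over NM and 0.31 in NM over OM. The 19 members of that band had medians of -0.20, -0.37 and 0.20, so the brightest members did not lie below other genes of their signal. That band held 71 cytosolic ribosomal protein genes, and without these its medians were -0.18, -0.43 and 0.28.

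At lower signals the members lay apart from other genes in the comparisons with the bodies. Between 20000 and 50000 a.u. the 22 members had a median of -0.21 in MB over OM, against -0.05 for all genes of the band, and of -0.46 against -0.21 in MB over NM. Between 10000 and 20000 a.u. the 25 members had medians of -0.22 against 0.04 and of -0.41 against -0.07. Between 3000 and 10000 a.u. the 10 members had medians of -0.17 against 0.14 and of -0.31 against 0.04. In NM over OM the members and other genes lay closer, at 0.24 against 0.18, 0.20 against 0.14 and 0.27 against 0.10 in the same order of bands. The cause of the trend with signal was not tested.

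**Figure D2:**
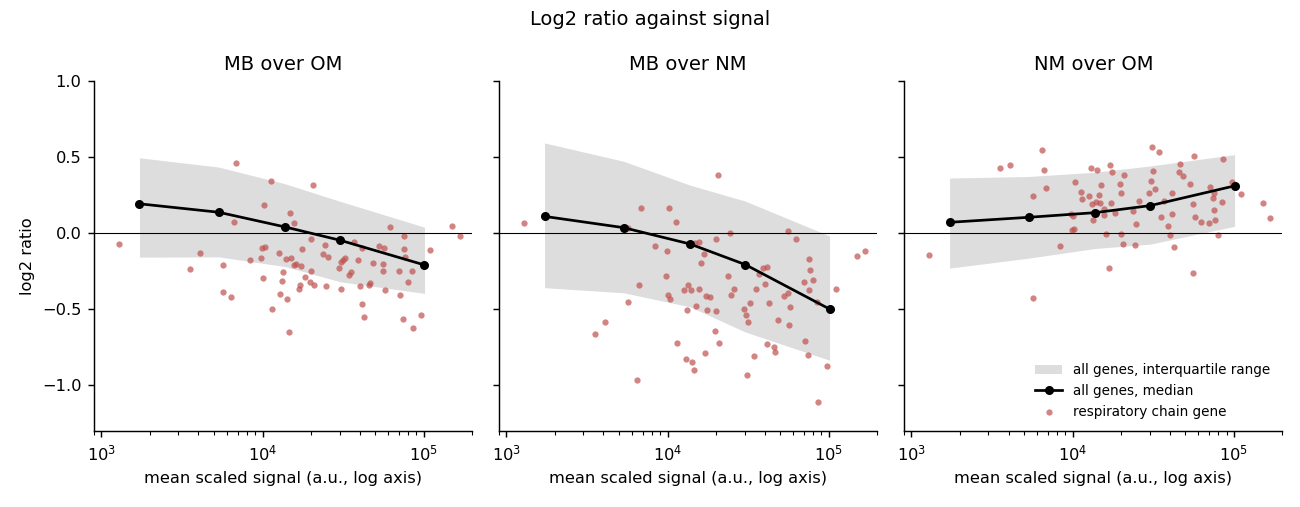
Log2 ratio (vertical axis) against the mean scaled signal of the 3 arrays (horizontal log axis, a.u.) for the respiratory chain genes (red points), with the median (black line) and interquartile range (grey) of all genes in 5 bands of signal. The black line declines with signal in both comparisons of MB, and most red points below 50000 a.u. lie under it; COX6B2, with a mean of 152 a.u., lies left of the axis.

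Complex I was represented by 36 measured genes, and its median log2 ratio was -0.20 in MB over OM, -0.37 in MB over NM and 0.21 in NM over OM. In each comparison with the bodies 33 of the 36 were below 0. The 7 core subunits, which form the arm that carries electrons from NADH to coenzyme Q, had a median of -0.16 in MB over OM and -0.37 in MB over NM, and 6 and 7 of them were below 0. The 29 accessory subunits, which are needed for assembly and stability of the complex, had medians of -0.25 and -0.41, with 27 and 26 below 0. In MB over NM 8 of the 36 were lower by 1.5-fold or more. The same held for 16.4% of all genes and for 440 of the 1788 genes within the interquartile range of the members' signal. All 8 were accessory subunits, the class that holds 29 of the 36.

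NDUFA7, an accessory subunit, was the lowest member in MB over OM. It read 15456 a.u. on OM, 9875 a.u. on MB and 18430 a.u. on NM, so that MB was 1.57-fold below OM and 1.87-fold below NM. NDUFB8, a subunit of the membrane arm whose protein is lost when complex I fails to assemble, read 98276, 67846 and 124046 a.u., with MB 1.45-fold below OM and 1.83-fold below NM. NDUFA3 read 5992, 4492 and 8762 a.u., with MB 1.33-fold below OM and 1.95-fold below NM. These genes were lowest on MB and highest on NM, with OM between.

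NDUFA6 followed the same order, at 31597, 26068 and 45649 a.u., and lay among the 5 genes with the highest ratios in NM over OM (0.53). NDUFB9, the brightest complex I gene, differed less, at 105618 a.u. on OM, 97928 a.u. on MB and 126455 a.u. on NM. NDUFA8 and NDUFB3 were highest on OM: NDUFA8 read 62990, 52966 and 52467 a.u. and NDUFB3 read 19274, 14974 and 16422 a.u. Both had NM over OM log2 ratios among the 5 lowest (-0.26 and -0.23).

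Above 0 in MB over OM were 3 complex I genes. NDUFB11, an X-linked subunit of the membrane arm, had the highest ratio of all members (0.46), at 5668 a.u. on OM, 7809 a.u. on MB and 6965 a.u. on NM. NDUFV3, a subunit of the NADH-oxidising module, read 9728, 11080 and 9896 a.u. NDUFS3, a core subunit of the arm that leads to coenzyme Q, read 13636, 14983 and 15677 a.u. NDUFB11 and NDUFV3 were also above 0 in MB over NM (0.16 for each), while NDUFS3 was not (-0.07). In MB over OM NDUFB11 was above 0 under every scaling tried, whereas NDUFV3 and NDUFS3 were below 0 with the 75th percentile and with spike-ins (-0.13 and -0.18 with the latter). In MB over NM spike-in scaling put NDUFB11 and NDUFV3 at -0.0091 and -0.011.

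Complex II, succinate dehydrogenase, is the one complex of the chain encoded wholly in the nucleus and also a step of the TCA cycle. Its 4 genes had a median log2 ratio of -0.18 in MB over OM, -0.16 in MB over NM and 0.06 in NM over OM. SDHA, the flavoprotein that oxidises succinate, read 20102, 19541 and 20024 a.u. on OM, MB and NM, within 2 technical SDs of each other, but a second probe gave log2 ratios of -0.16 in MB over OM and -0.26 in MB over NM, beyond 2 SDs. SDHB, the iron-sulfur subunit, read 9857, 8824 and 10737 a.u.

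The anchors that hold the catalytic part in the membrane differed from each other. SDHD read 5593, 4837 and 6622 a.u., lowest on MB as in most of the set. SDHC read 6828, 5215 and 5085 a.u., close on MB and NM, and had the lowest NM over OM ratio of all members (-0.43). The sign of the complex II median in NM over OM depended on scaling: it was -0.02 with 75th percentile scaling, -0.07 with quantile normalisation, -0.08 with spike-in scaling and -0.13 with no scaling.

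Complex III had 7 measured genes, with medians of -0.32 in MB over OM, -0.50 in MB over NM and 0.26 in NM over OM. Its catalytic cytochrome c1 gene, CYC1, has a name outside the families taken and was counted with the electron carriers. UQCRC2, a core protein, read 16133 a.u. on OM, 12757 a.u. on MB and 21979 a.u. on NM, with MB 1.72-fold below NM. UQCRB and UQCR (now UQCR11), both small subunits, were 1.65-fold and 1.72-fold lower on MB than on NM. UQCRFS1, the Rieske iron-sulfur protein that passes electrons on, read 29392, 25041 and 35302 a.u.

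UQCRH, the brightest complex III gene, read 85539, 68523 and 84763 a.u., close on both monolayers and 1.25-fold below OM on MB. UQCRC1, the partner core protein of UQCRC2, went the other way. It read 19170 a.u. on OM, 23826 a.u. on MB and 18252 a.u. on NM, and had the highest MB over NM ratio of all members (0.38), which lay between 0.21 and 0.54 under the other scalings. Thus the paired core proteins of complex III lay on opposite sides of 0, at -0.34 and 0.31 in MB over OM, though UQCRC1 was level (0.00075) with spike-in scaling.

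Complex IV, cytochrome c oxidase, had the lowest medians of the 5 complexes in MB over OM (-0.37) and MB over NM (-0.66) and the highest in NM over OM (0.28). All 14 measured genes were below 0 in both comparisons of the bodies, and 12 of the 14 were above 0 in NM over OM. In MB over NM 8 of the 14 were lower by 1.5-fold or more. The same held for the 16.4% of all genes given above and for 673 of the 1907 genes above 20000 a.u. The medians of complex IV were -0.30, -0.42 and 0.09 after quantile normalisation, where complex II (-0.31) was the lowest in MB over OM. A member first assigned to complex I, NDUFA4 (now COXFA4), is counted here. The complexes differ in signal. COX4I1, COX6A2, NDUFA4, COX7A2, COX5B and COX6A1 had mean signals above 50000 a.u., and the other genes of complex IV lay below. All genes above 50000 a.u. had medians of -0.21 in MB over OM and -0.50 in MB over NM. The part of signal in the ranking of the complexes was not tested.

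Taking each gene by its brightest probe, COX4I1, the subunit through which ATP inhibits the enzyme, had the lowest MB over NM ratio of the set. It read 83771 a.u. on OM, 54522 a.u. on MB and 117517 a.u. on NM, with MB 1.54-fold below OM and 2.16-fold below NM. By brightest probes it was the one member past 2-fold in any comparison. Both of its bright probes lie in coding sequence and span an intron, so that each is matched by spliced RNA. They are shown because that lowest ratio rests on them. They are printed 5′ to 3′ on the gene's strand as given in the scanner files, with positions on the plus strand of build hg17 from their first to last base, intron included.
probe at chr16:84392353-84396070: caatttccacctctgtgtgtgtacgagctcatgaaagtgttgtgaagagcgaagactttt
probe at chr16:84396198-84396885: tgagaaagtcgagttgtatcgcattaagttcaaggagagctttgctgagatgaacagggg

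The log2 ratios of these probes were -0.68 and -0.62 in MB over OM, -1.14 and -1.11 in MB over NM and 0.46 and 0.49 in NM over OM. Another, dim probe, downstream at chr16:84397767-84397826 and designed on another transcript record, gave 0.09, 0.76 and -0.67, at signals between 981 and 1850 a.u. before scaling. The probes that match the coding sequence thus gave like ratios and the dim one did not.

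The remaining complex IV genes kept the order of MB below both monolayers, with different gaps. COX6A2, the isoform known from heart and skeletal muscle, read 77864, 52595 and 91615 a.u., from its 1 probe. COX8A read 48575 a.u. on OM, 33163 a.u. on MB and 45544 a.u. on NM, so that NM did not pass OM. COX7A2L, which joins complexes III and IV in supercomplexes, read 28400, 22082 and 42062 a.u. and had the highest NM over OM ratio of all members (0.57). COX5B, at 50314, 47079 and 71631 a.u., was close on OM and MB and 1.52-fold lower on MB than on NM.

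Isoform pairs were compared only as ratios of each probe with itself. COX6A1, the widely expressed partner of COX6A2, had log2 ratios of -0.20, -0.40 and 0.19 in MB over OM, MB over NM and NM over OM. COX7A2 read -0.37, -0.48 and 0.11, COX6B1 -0.20, -0.20 and -0.01, and COX7B -0.13, -0.58 and 0.45. Beside COX6A2, the tissue-restricted isoforms were dim or not well above background. The testis isoform COX6B2 read 157, 138 and 161 a.u., and the lung isoform COX4I2, the muscle isoform COX7A1 and the testis isoform COX7B2 were well above background on none of the arrays.

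**Figure D3:**
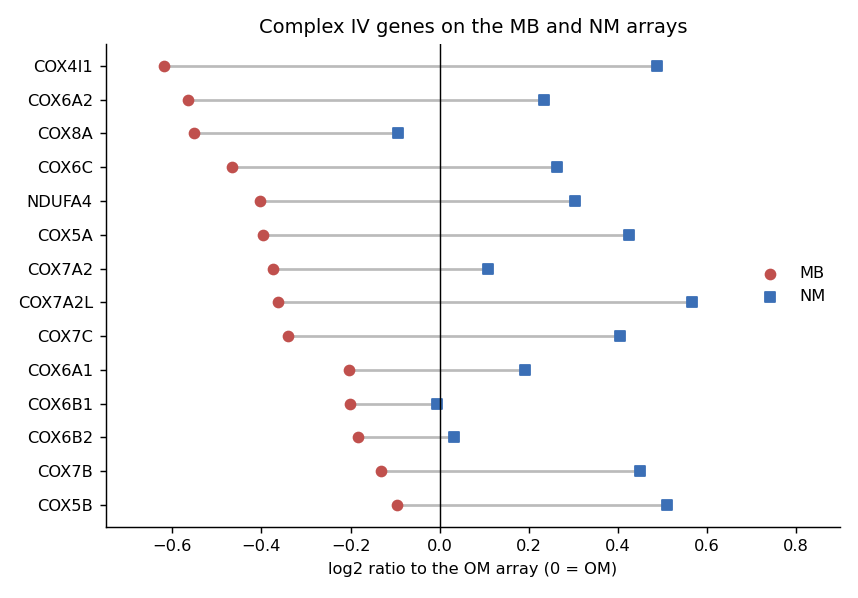
Log2 ratio to the OM array (horizontal axis, 0 is OM) of the 14 measured complex IV genes (rows) on MB (red circles) and NM (blue squares), 1 array each. All 14 circles lie left of 0, from -0.62 for COX4I1 to -0.10 for COX5B, and 12 of the 14 squares lie right of 0.

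Complex V had 15 measured genes, with medians of -0.11 in MB over OM, -0.34 in MB over NM and 0.20 in NM over OM. In MB over OM the 5 genes of the catalytic F1 sector had a median of 0.05, and 4 of the 5 were above 0, against 56.5% of all genes. Of these 4, ATP5A1 (0.04), ATP5E (0.05) and ATP5D (0.07) were within 2 technical SDs of 0, and a second ATP5D probe gave -0.02. All 10 genes of the c ring, the peripheral stalk and the membrane sector were below 0, against 43.5% of all genes, with medians of -0.16, -0.19 and -0.25. Among them ATP5G3 (-0.02), ATP5J2 (-0.08) and ATP5O (-0.11) were within 2 technical SDs, and a second ATP5L probe gave 0.07. In MB over NM the F1 median was -0.15 and the other medians -0.46, -0.39 and -0.45. The F1 median in MB over OM was 0.18 after quantile normalisation, but -0.14 with 75th percentile and -0.27 with spike-in scaling. The median of the whole complex in MB over NM was 0.02 after quantile normalisation.

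In the F1 sector, ATP5A1 and ATP5B (now ATP5F1A and ATP5F1B), the alpha and catalytic beta subunits, differed by less than 1.5-fold between all arrays. ATP5A1 read 60480, 62166 and 63776 a.u. on OM, MB and NM, within 2 technical SDs, and ATP5B read 40750, 38159 and 44572 a.u., with -0.22 in MB over NM. ATP5C1 (ATP5F1C), the gamma subunit of the turning shaft, read 9696, 12315 and 11689 a.u., lowest on OM under every scaling tried. The 3 genes of the c ring, the rotor through which protons pass, encode the same mature protein. ATP5G1 (ATP5MC1) read 13518, 10874 and 15413 a.u., ATP5G2 (ATP5MC2) had log2 ratios of -0.16, -0.46 and 0.29, and ATP5G3 (ATP5MC3), the brightest member of all, read 164156, 162184 and 175647 a.u.

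The one complex V gene lower by 1.5-fold in MB over NM was ATP5I (ATP5ME), a subunit of the membrane sector, at 19425 a.u. on OM, 15525 a.u. on MB and 24262 a.u. on NM. Its neighbour in that sector, ATP5J2 (ATP5MF), differed little, at 25349, 24022 and 24004 a.u. Matched names included 2 genes that are not subunits. ATP5S (DMAC2L), a factor once listed with the ATP synthase, had log2 ratios of -0.07, 0.07 and -0.14, and COX4NB (EMC8), named for its place beside COX4I1, had 0.07, -0.06 and 0.12. Without them the medians over the 76 subunits were -0.21, -0.41 and 0.21.

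Among 30 genes with more than 1 probe measured on all arrays, the probes of a gene lay within 1.5-fold of each other in 26 for MB over OM, 23 for MB over NM and 27 for NM over OM. The exceptions were 7 genes, in each of which a dimmer probe departed from a brighter one. At NDUFV3 the probes at chr21:43202103-43202162 and chr21:43202066-43202125 gave MB over NM log2 ratios of 0.16 and 0.38, while a dim one at chr21:43196595-43196654 gave 1.97, at 950, 1473 and 338 a.u. before scaling. At NDUFC2 the bright probe gave -0.36 and the dim one, at chr11:77457083-77457142, gave 1.05, at 387, 959 and 417 a.u. At UQCR the values were -0.78 and 0.63, at ATP5G3 -0.12 and 0.66, at ATP5J -0.23 and -1.12, and at COX6B2 -0.22 and -1.27. The dim probe of ATP5J is on the opposite strand from the gene's bright probe. COX4I1 has been described. Over the 30 genes the median gap in log2 ratio between the highest and lowest probe was 0.098 in MB over OM. It was 0.12 in MB over NM and 0.080 in NM over OM. The 1.5-fold limit is wider than the members' median ratios. Probes within it could differ in sign, as at ATP5L (-0.25 and 0.07 in MB over OM).

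Promoters are shown because many members share motifs for factors that are known to switch respiratory genes together: NRF-1, GABP (NRF-2, of the ETS family) and YY1. RefSeq promoter sequence (GRCh38.p14, from 250 bases before to 50 after the start) was found for 65 of the 78 measured members. On either strand, the NRF-1 letters GCATGCGC were in 13 of the 65 (20.0%) against 3.27% of 27305 promoters. The GABP letters CCGGAA were in 28 (43.1%) against 17.6%, and the YY1 letters AAGATGGC in 11 (16.9%) against 3.03%. At least 1 of the 3 was in 39 (60.0%) against 21.9%.

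The MB over OM ratios of members with and without a match had like medians. Members with any of the motifs had a median log2 ratio of -0.21 and those without -0.20, and the same medians were -0.19 and -0.22 for NRF-1, -0.20 and -0.24 for GABP and -0.22 and -0.21 for YY1. A match of letters is a description and not a binding site. The windows below, with matches in capitals, set members that read lower on MB than on OM (COX4I1, COX8A, ATP5I) beside members that read higher on MB than on OM (ATP5C1, NDUFS3) and carry the same letters. These genes were chosen after their values were seen. Each is 5′ to 3′ on the gene's strand and ends at the base before the start, except that of COX4I1, which runs between its start and that of COX4NB.
COX4I1 and COX4NB, chr16:85799545-85799694, plus strand: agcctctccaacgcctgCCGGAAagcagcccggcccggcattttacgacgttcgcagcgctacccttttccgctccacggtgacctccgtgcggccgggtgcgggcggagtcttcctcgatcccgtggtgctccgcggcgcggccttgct
COX8A, chr11:63974500-63974619, plus strand: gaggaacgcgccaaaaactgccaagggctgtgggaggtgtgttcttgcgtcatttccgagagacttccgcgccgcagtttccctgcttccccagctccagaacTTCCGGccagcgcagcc
ATP5I, chr4:674277-674396, minus strand: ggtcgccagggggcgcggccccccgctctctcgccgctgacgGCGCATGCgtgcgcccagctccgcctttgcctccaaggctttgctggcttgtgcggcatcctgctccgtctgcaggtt
ATP5C1, chr10:7788057-7788176, plus strand: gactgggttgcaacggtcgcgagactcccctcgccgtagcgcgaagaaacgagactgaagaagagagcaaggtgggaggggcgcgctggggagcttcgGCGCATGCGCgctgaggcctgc
NDUFS3, chr11:47578954-47579073, plus strand: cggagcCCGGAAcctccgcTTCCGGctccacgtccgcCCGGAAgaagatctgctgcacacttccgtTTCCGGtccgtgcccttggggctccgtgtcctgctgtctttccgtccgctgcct

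COX4I1 and COX4NB start 151 bases apart on opposite strands and so share the stretch printed first. COX4NB read 14940 a.u. on OM, 15632 a.u. on MB and 16258 a.u. on NM. Genes that share this stretch therefore differed in ratio, with -0.62 for COX4I1 and 0.07 for COX4NB in MB over OM, and -1.11 and -0.06 in MB over NM.

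The other genes of the pathway were taken from lists and not for how they moved. Assembly factors, which build the complexes and insert their cofactors, had medians over 24 genes of 0.02 in MB over OM, -0.15 in MB over NM and 0.17 in NM over OM, and 11, 16 and 4 of them were below 0. Their MB over OM median was -0.17 with the 75th percentile and -0.29 with spike-ins, below 0 as with no scaling, the geometric mean and quantile normalisation. In MB over OM 1 of them was lower by 1.5-fold and 0 higher, where 8.41% of all genes were lower and 14.5% higher. The lower one was COX17, the copper chaperone of complex IV, with log2 ratios of -0.72, -0.87 and 0.16. COX15, which makes heme A for complex IV, had -0.22, -0.39 and 0.16, while its second probe gave 0.14 in MB over OM. TMEM70, which assists ATP synthase assembly, had 0.47, 0.27 and 0.20. COX19 had probes that differed in MB over OM, at 0.46 and -0.17.

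The electron carriers and enzymes of coenzyme Q synthesis had medians over 20 genes of -0.05, -0.18 and 0.10. By 1.5-fold 1 was higher and 0 lower in MB over OM, where 14.5% of all genes were higher and 8.41% lower. In MB over NM 1 was higher and 5 lower, where 19.8% of all genes were higher and 16.4% lower. The NM over OM median was -0.086 with no scaling and -0.036 with spike-ins. COQ7, a hydroxylase of coenzyme Q synthesis, had probes at -0.57 and 0.24 in MB over OM. COQ5, a methyltransferase of the same route, had -0.37 in MB over OM and -0.66 in MB over NM. GPD2, the mitochondrial glycerol-3-phosphate dehydrogenase that feeds electrons to coenzyme Q, had 0.57 and 0.61, and PDSS2, which makes the side chain of coenzyme Q, had 0.62 and 0.57.

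The regulators of mitochondrial biogenesis lay on the other side of 0 from the subunits. Their medians over 20 genes were 0.35 in MB over OM, 0.46 in MB over NM and 0.04 in NM over OM, and 16 of the 20 were above 0 in each comparison with the bodies, against 56.5% and 52.7% of all genes. Under the other scalings the medians lay between 0.034 and 0.32 in MB over OM and between 0.28 and 0.61 in MB over NM, while that of NM over OM was below 0 under all but the geometric mean. By 1.5-fold 7 were higher and 1 lower in MB over OM, and 9 higher and 3 lower in MB over NM. Of all genes 14.5% and 19.8% were higher and 8.41% and 16.4% lower in these comparisons. All genes between 1000 and 3000 a.u. and between 3000 and 10000 a.u. had MB over OM medians of 0.19 and 0.14, and the part of signal in the regulators' values was not tested. PPARGC1A, the gene of PGC-1alpha, read 31.0 a.u. on OM, 161 a.u. on MB and 60.3 a.u. on NM before scaling, with log2 ratios of 2.40, 1.26 and 1.15 in the same order of comparisons. The OM and NM signals are near the lowest called well above background on those arrays (20.9 and 29.1 a.u.), and a second PPARGC1A probe was well above background on none of them.

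PPARA, a nuclear receptor of fatty acid oxidation, gave log2 ratios of 0.97 and 0.92 in MB over OM from its brightest probes and 0.02 and -0.40 from dimmer ones. TFB1M, a methyltransferase of the mitochondrial ribosome, was highest on OM, with -0.49 in MB over OM and 0.04 in MB over NM. GABPB2, as named on the array, had probes at -0.72, 0.41 and 0.34 in MB over OM. In MB over OM the subunit and regulator lists thus had medians of opposite sign (-0.21 and 0.35), each from 1 array per population.

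**Figure D4:**
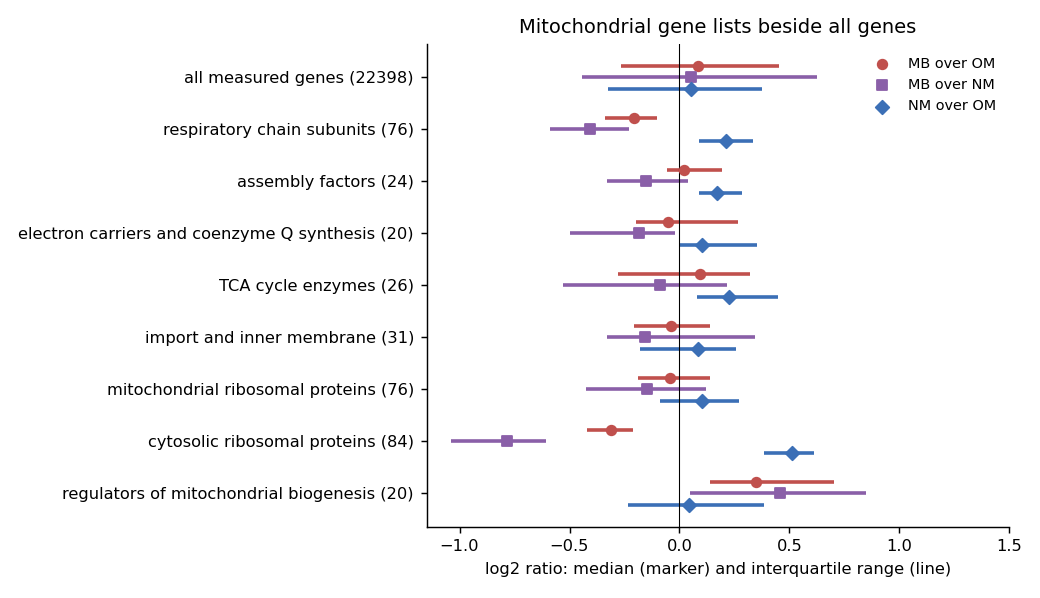
Median (marker) and interquartile range (line) of the log2 ratios (horizontal axis) of the respiratory chain subunits, 7 other gene lists and all measured genes (rows, with the number of genes for MB over OM), for MB over OM (red circles), MB over NM (purple squares) and NM over OM (blue diamonds). The subunits lie left of 0 in both comparisons of MB, cytosolic ribosomal proteins lie further left (-0.31 and -0.78), and the regulators of mitochondrial biogenesis lie right of 0 (0.35 and 0.46).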

How the data were processed

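Total RNA of OM, MB and NM was amplified and labelled. The Cy3-labelled cRNA of each was hybridised to 1 single-colour Agilent array (probes of 60 bases). The authors deposited the processed signal of each spot as an intensity from Agilent Feature Extraction 9.5, detrended across the slide and with surrogates for low values, and a value table whose 43376 values per array match it within 0.1%. Outlier spots (77 to 81 per array) were dropped, spots of a probe were averaged, and each array was scaled to the average of its GAPDH, ACTB and HSP90AA1 probes. A gene was measured if well above background on at least 1 array and was represented by its brightest probe; a call needed 1.5-fold and more than 100 a.u. on the brighter array. There was no test with 1 array per population. Calling was checked on simulated arrays made from the OM signals with 2-fold changes put in. Smaller changes and a trend with signal were not simulated, so the check does not cover them. Members, lists and alternatives were chosen with earlier results of these data known. Genes named were the 5 highest and lowest of each comparison, the brightest of each complex, all SDH genes, isoform pairs, genes with discordant probes, non-subunits and genes at background; of other lists, the 2 highest and lowest in MB over OM among genes well above background on all 3 arrays. RefSeq GRCh38.p14 gave current symbols for 81 of 81 names (19 had changed) and the promoters. Python 3.11.15, pandas 2.3.3, R 4.3.3 and limma 3.58.1 were used.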

Additional observations from a re-analysis of the deposited data

How the results depend on the processing

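No paired analysis was possible because each population was hybridised once, which also left no array to leave out and limits the precision. Values are medians of log2 ratios in the order all members, then complexes I, II, III, IV and V.

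With 75th percentile scaling they were -0.39, -0.39, -0.37, -0.51, -0.56 and -0.29 in MB over OM, -0.51, -0.49, -0.27, -0.61, -0.77 and -0.45 in MB over NM, and 0.13, 0.14, -0.016, 0.19, 0.21 and 0.12 in NM over OM, and 11 members were lower by 1.5-fold in MB over OM. With spike-in scaling they were -0.52, -0.51, -0.50, -0.63, -0.68 and -0.42, then -0.57, -0.55, -0.33, -0.67, -0.83 and -0.51, and then 0.069, 0.072, -0.080, 0.13, 0.14 and 0.058, with 27 members lower in MB over OM and 37 in MB over NM. The geometric mean of the housekeeping genes gave -0.49, -0.47, -0.25, -0.59, -0.75 and -0.43 in MB over NM and 0.28, 0.28, 0.13, 0.33, 0.35 and 0.27 in NM over OM, with 3 members higher by 1.5-fold in NM over OM. No scaling gave -0.24, -0.22, -0.0029, -0.34, -0.50 and -0.18 in MB over NM and 0.019, 0.022, -0.13, 0.075, 0.094 and 0.00833 in NM over OM, with 12 members lower in MB over NM and 1 lower in NM over OM. These scalings move every gene of an array alike: the median of all genes in MB over OM became -0.11 with the 75th percentile and -0.23 with spike-ins. The share of all genes called was not counted under the alternative settings.

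Quantile normalisation gave -0.25, -0.27 (complex I), -0.30 (III), -0.42 (IV) and 0.021 (V) in MB over NM with 11 members lower, -0.31 (II), -0.19 (III) and -0.30 (IV) in MB over OM, and 0.029, 0.044, -0.073, 0.11, 0.086 and 0.0026 in NM over OM. The mean of all probes gave complex III medians of -0.22, -0.29 and 0.19 in MB over OM, MB over NM and NM over OM, 1 member lower in MB over OM, 1 higher in MB over NM and 1 higher in NM over OM. With no filter 1 member was higher in MB over NM, and 2 were higher and 1 lower in NM over OM. At 2-fold 0 members were lower in MB over OM and 1 in MB over NM, and at 5-fold 0 and 0. The cause of these shifts was not tested beyond the scalings' own construction.

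The difference between the members' median and that of all measured genes, added after the data were seen, lay between -0.29 and -0.17 in MB over OM, between -0.48 and -0.21 in MB over NM and between 0.0045 and 0.19 in NM over OM under these settings. Against genes in the interquartile range of the members' signal it lay between -0.23 and -0.19, -0.30 and -0.24, and 0.036 and 0.092. Normexp, no background subtraction, detection on all 3 arrays, outlier spots kept, the series value table and leaving out non-subunits moved no median of the members or of a complex beyond the technical SD and no count by over 1.5 times. Of 1359 values of named genes under the alternatives, 900 moved by less than the technical SD and 459 by more. None past 1.5-fold in the main scaling changed sign. The scalings by 1 factor per array moved ratios by less than 1.5-fold, so they could not turn such a value. Smaller ratios, which most members had, were not counted for sign. Some changed it: NDUFV3 (0.19) and NDUFS3 (0.14) in MB over OM were -0.13 and -0.18 with spike-in scaling.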

Other observations

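TCA cycle enzymes had medians over 26 genes of 0.10 in MB over OM, -0.09 in MB over NM and 0.22 in NM over OM. The MB over OM median was -0.094 with 75th percentile and -0.22 with spike-in scaling, and that of MB over NM was 0.067 with no scaling. By 1.5-fold 4 of the 26 were higher and 2 lower in MB over OM, beside 14.5% and 8.41% of all genes. DLST, the transsuccinylase of the 2-oxoglutarate dehydrogenase complex, read 3296 a.u. on OM, 1052 a.u. on MB and 4603 a.u. on NM before scaling, with log2 ratios of -1.61, -2.28 and 0.67, and its second probe gave -1.48, -2.32 and 0.84. OGDH, the first enzyme of the same complex, gave 1.08 and 1.27 in MB over OM from its brighter probes and -0.72 from the dimmest. IDH2, the mitochondrial NADP-dependent isocitrate dehydrogenase, had -0.61 in MB over OM and -1.03 in MB over NM. PDK4, a kinase that inhibits pyruvate dehydrogenase, had 1.38 and 1.15 at signals of at most 221 a.u., and its second probe was well above background on none of the arrays.

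Mitochondrial ribosomal proteins had medians over 76 genes of -0.04, -0.15 and 0.10, and import and inner membrane genes medians over 31 genes of -0.04, -0.16 and 0.09. With no scaling the MB over NM medians of both were 0.0090 and 0.0011, and after quantile normalisation that of the import list was 0.14. The NM over OM medians of both were below 0 with no scaling, spike-ins and quantile normalisation. MRPL33 gave -0.86 and -0.76 in MB over OM from its probes, with MRPS16 at -0.51, and MRPS27 and MRPS18A were at 0.65 and 0.53. ATPIF1, the inhibitor of ATP synthase running in reverse, had -0.57 in MB over OM and -0.76 in MB over NM, and TIMM44 had -0.31 and -0.64. TOMM40, the channel of the outer membrane import complex, had 0.49 and 1.05, and its 3 probes lay between 1.05 and 1.09 in MB over NM. UCP2, an inner membrane carrier, had 0.66 and 0.74 at signals of at most 90.1 a.u. Cytosolic ribosomal proteins, listed beside them, had medians over 84 genes of -0.31, -0.78 and 0.51. This list was taken by a pattern of gene names, so a match need not be a ribosomal protein. RPS21 and RPL36 were lowest in MB over OM (-0.64 for each) and RPL7L1 and RPL23A highest (0.25 and -0.01). RPL7L1 was the 1 gene of the 84 above 0 there, and the other 83 were below.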
